A study of Sus scrofa with 4 samples.

Results

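Chemokines are small secreted proteins that direct the movement of cells, and their receptors are G protein-coupled receptors carried mostly by leukocytes. Genes of this family were picked out by symbol: every gene whose name starts with CCL, CCR, CXCL, CXCR, CX3CL, CX3CR, XCL, XCR or ACKR followed by a digit. The rule found 43 of the 29263 genes in the count tables, 24 ligands and 19 receptors. Of these, 41 had enough counts to be tested and 38 had at least 1 count in every library.

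The libraries came from lungs of pigs of a single genotype, the LGR5-H2B-GFP knock-in, in which green fluorescent protein fused to histone H2B is made from the LGR5 locus. LGR5 is a receptor that amplifies Wnt signals. Dissociated lung cells were sorted into GFP-HI and GFP-NEG fractions, with 2 biological replicates of each (replicates 1 and 2) and no treatment. The labels describe digestion of adult or fetal lung without saying which applies here, and only the name of the authors' comparison table contains the word adult. GFP-NEG is the fraction sorted as lacking the reporter, a mixture that can hold leukocytes, endothelium, epithelium and other stroma. The labels do not say whether gates on EPCAM or NGFR also applied to these libraries, which would limit that mixture. GFP-HI is likewise a sorted fraction and not a clone or a purified cell type.

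In resting tissue, fibroblasts and other stromal cells make homeostatic chemokines such as CXCL12, which retains and positions cells that carry CXCR4. Inflammatory chemokines such as CCL3, CCL4, CCL5 and CXCL8 are made largely by activated leukocytes, although stromal cells can also make some of them, CCL2 among these. Atypical receptors, named ACKR, bind chemokines and clear or relocate them without signalling through G proteins.

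Each GFP-HI library held 24200550 or 24689986 counts and each GFP-NEG library 6292253 or 7045652, so depth differed with the sort. The GFP-NEG libraries, though shallower, had counts on 24120 and 25985 genes, against 18752 and 18392 in GFP-HI. The part of this in the calls of genes with few counts was not tested. LGR5 stood at 149 ± 4.63 CPM in GFP-HI against 1.16 ± 0.555 CPM in GFP-NEG (SD, n = 2 each), in the direction of the sort. CPM stands for counts relative to library size, scaled by edgeR's TMM. Of all tested genes, 8.35% were called higher and 27.6% lower in GFP-HI. These shares are the background for the edgeR counts of called genes in every list below. Of 14 tested fibroblast markers, 10 were higher in GFP-HI, with summed levels of 98525 and 90415 CPM against 31293 and 10309 CPM (3 to 9 of the 14 without 1 library). GFP-NEG replicate 1 thus held more fibroblast signal than GFP-NEG replicate 2. All 7 tested pan-leukocyte markers were lower in GFP-HI, with summed levels of 328 and 631 CPM against 4276 and 6390 CPM, and each of the 7 had counts in both GFP-HI libraries. Of 12 tested epithelial markers, 3 were lower and 0 higher in GFP-HI, with summed levels of 384 and 430 CPM against 887 and 271 CPM. Without 1 library 1 to 3 were lower, and 1 was higher without GFP-NEG replicate 1.

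Most of the family was lower in GFP-HI. Of the 41 tested members, 2 were higher and 29 lower in GFP-HI at an adjusted p under 0.05 (edgeR quasi-likelihood test, Benjamini-Hochberg over all 19682 tested genes). Over all tested genes, 8.35% were higher and 27.6% lower by the same rule, against 4.88% and 70.7% of the tested members. DESeq2 called 2 members higher and 27 lower, against 5.6% and 24.9% of all genes it tested. The median log2 fold change, GFP-HI over GFP-NEG, was -3.01 for the tested members and -0.25 for all tested genes. Genes restricted to tissues other than lung, listed as a control, also lay low in GFP-HI: 10 of 20 tested were called lower and 1 higher, with a median of -2.85. Without 1 library 2 to 5 of them were called lower. Both GFP-HI libraries lay below both GFP-NEG libraries for 30 tested members and above them for 3, shares of 73.2% and 7.32%, while over all tested genes the shares were 42.0% and 27.7%. The 30 are the 29 called lower and CCL1, a T cell-derived ligand of CCR8, at 0.317 and 2.38 CPM in GFP-HI against 3.57 and 3.51 CPM (log2 fold change -1.39, adjusted p of 0.37, edgeR). Counts on the 43 genes made up 0.115% and 0.118% of the GFP-HI libraries and 0.376% and 0.360% of the GFP-NEG libraries. In sorted bulk RNA, fewer cells of a type and less RNA per cell cannot be told apart.

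**Figure D1:**
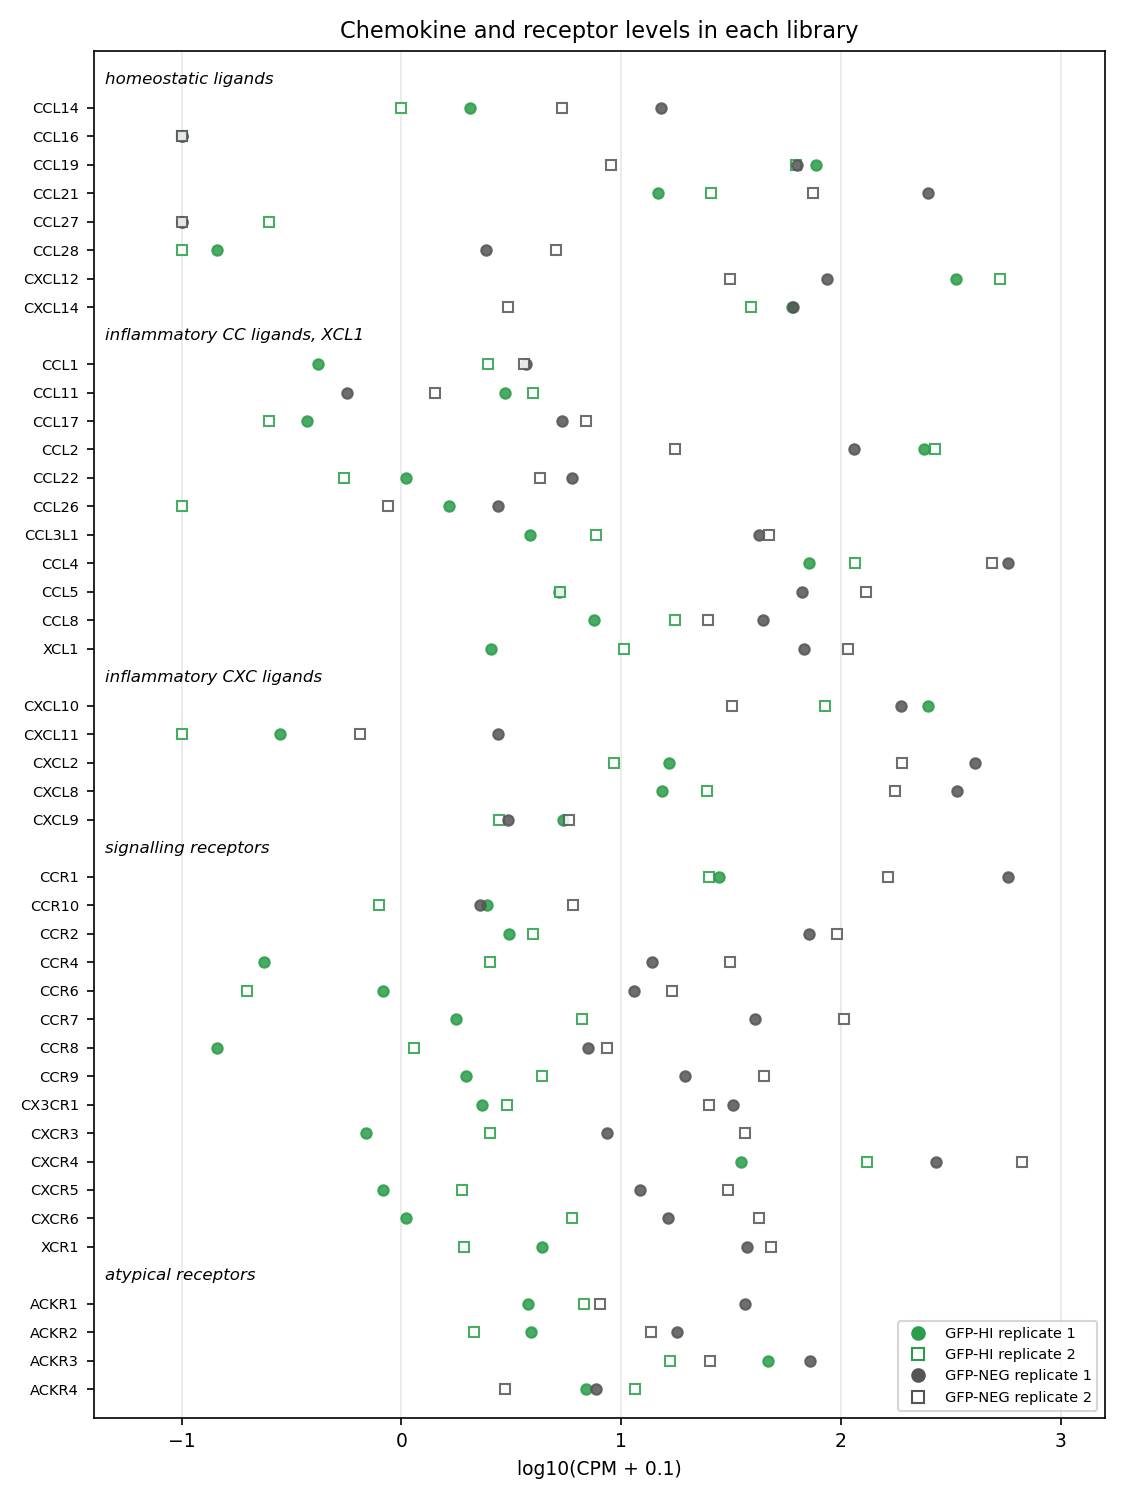
Level of 42 of the 43 genes in each library as log10(CPM + 0.1), grouped by role. Circles are replicate 1 and squares replicate 2, green for GFP-HI and grey for GFP-NEG. CXCL12 and CCL2 have both green symbols to the right of both grey ones, and 13 of the 14 signalling receptors drawn have both to the left.

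The calls differed in how far they rested on single libraries. All 31 called members kept the sign of their fold change in each fit in which they were tested. The fits covered other scalings and filters, DESeq2, the replicate block and the removal of single libraries. As the groups of all 31 lay apart, the removal of 1 library could hardly have turned a sign. With 1 library left out, the number called higher ranged from 0 to 5 and the number called lower from 21 to 24. Each such fit leaves 1 fraction with a single library, which is assumed to vary like the others. Of the 31 called members, 18 kept their call in all 4 of these fits.

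CXCL12 had the largest rise among the tested members. It stood at 334 and 527 CPM in the GFP-HI libraries (replicates 1 and 2) and at 86.0 and 31.1 CPM in the GFP-NEG libraries, or 430 ± 136 against 58.6 ± 38.8 CPM (SD, n = 2). The groups did not overlap, and the lower GFP-HI value was above the higher GFP-NEG value. This gave a log2 fold change of 2.88 (SE 0.69, adjusted p of 2.0e-04, edgeR). It was 1.95 within replicate 1 and 4.06 within replicate 2, as differences in log2(CPM + 0.5). Without GFP-NEG replicate 2 the log2 fold change was 2.28 and no longer past the threshold (adjusted p of 0.13).

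CCL2, the monocyte attractant that acts on CCR2, was the other member called higher. Its levels were 239 and 268 CPM in GFP-HI and 115 and 17.5 CPM in GFP-NEG, or 253 ± 20.9 against 66.2 ± 68.8 CPM (SD, n = 2). The GFP-HI libraries were close to each other, while the GFP-NEG libraries were far apart. The log2 fold change was 1.94 (SE 0.61, adjusted p of 0.0064, edgeR). This call was lost without GFP-NEG replicate 2 (1.10, adjusted p of 0.57), without either GFP-HI library (2.11 and 1.88, adjusted p of 0.065 and 0.11) and with a filter of 10 counts in 2 libraries (adjusted p of 0.076). Without GFP-NEG replicate 1 the value was 3.90.

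CCL19 and CXCL14 behaved differently in the replicates. CCL19, a ligand of CCR7, was at 76.6 and 62.2 CPM in GFP-HI and at 63.2 and 8.88 CPM in GFP-NEG. CXCL14, a chemokine of stroma and epithelium, was at 59.4 and 39.0 CPM in GFP-HI and at 60.6 and 2.96 CPM in GFP-NEG. For both genes GFP-NEG replicate 1 reached the GFP-HI range and GFP-NEG replicate 2 lay far below it. The log2 fold changes of 0.95 and 0.64 did not pass the threshold (adjusted p of 0.15 and 0.36, edgeR).

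With the replicate number as a block, a pairing the labels do not establish, CCL19 was at 1.52 and CXCL14 at 1.74, and both passed (adjusted p of 0.037 and 0.031, edgeR), which brought the members called higher from 2 to 4. DESeq2 with the same block called 2 members higher, with CCL19 and CXCL14 short of the threshold (adjusted p of 0.078 and 0.079). Without GFP-NEG replicate 1 they stood at 3.02 and 4.10 (adjusted p of 0.0024 and 9.8e-05). Without GFP-NEG replicate 2 CXCL14 turned to -0.34. GFP-NEG replicate 1 is also the GFP-NEG library with the higher fibroblast and epithelial sums given above. Smooth muscle and pericyte markers summed to 2788 CPM there, against 452 CPM in GFP-NEG replicate 2. The pan-leukocyte sum given above was the lower one in GFP-NEG replicate 1. The part of any of these in the CCL19 and CXCL14 values was not tested.

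CCL21, the second ligand of CCR7, went the other way. Levels were 14.6 and 25.5 CPM in GFP-HI and 248 and 74.8 CPM in GFP-NEG, with both GFP-HI values below both others. It fell by 3.01 on the log2 scale (SE 0.59, adjusted p of 8.8e-06, edgeR), and by 1.85 without GFP-NEG replicate 1. CCL21 is made by lymphatic endothelium. The 7 tested lymphatic endothelial markers, CCL21 included, summed to 63.7 and 108 CPM in GFP-HI against 345 and 151 CPM in GFP-NEG. CCL21 alone gave 248 and 74.8 CPM of the GFP-NEG sums, so they are not independent of its fall. PROX1, a marker of that list, was lower without passing the threshold (-1.73, adjusted p of 0.10, edgeR). Of the 7 markers, 5 were called lower in GFP-HI, CCL21 itself among them. Without 1 library 3 or 4 of them were called lower. MMRN1 and RELN, which mark lymphatic vessels, had log2 fold changes of -3.69 and -3.26, the second short of the threshold without either GFP-HI library or GFP-NEG replicate 2 (adjusted p of 0.096, 0.077 and 0.087, edgeR). PDPN, a marker shared by lymphatic vessels and fibroblasts, was higher in GFP-HI (2.33), a call lost without GFP-NEG replicate 2.

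The balance of the CCR7 ligands can be read within each library, free of scaling between libraries. There were 5.25 and 2.44 counts of CCL19 per count of CCL21 in GFP-HI, against 0.254 and 0.119 in GFP-NEG. The groups did not overlap. No test was run on these ratios, which were chosen after the values were seen.

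CCL14 and CCL28 were the other homeostatic ligands that fell. CCL14, found in plasma and endothelium, was at 1.95 and 0.892 CPM in GFP-HI and at 15.1 and 5.26 CPM in GFP-NEG (log2 fold change -2.82, adjusted p of 0.0059, edgeR). That call was lost without GFP-NEG replicate 1 (-1.83, adjusted p of 0.27) and without GFP-HI replicate 2 (-2.32, adjusted p of 0.096). CCL28, a mucosal epithelial chemokine, had 1 and 0 counts in GFP-HI against 15 and 45 in GFP-NEG. Its CPM over the pooled GFP-HI counts was 0.00614 of that in GFP-NEG, with an exact 95% interval from 1.5e-04 to 0.0355 that covers counting error only.

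CCL16 had 0 counts in every library, which allows up to 0.136 and 0.149 CPM in GFP-HI and 0.466 and 0.329 CPM in GFP-NEG, taking 3 counts as the limit. CCL27 had 3 counts in GFP-HI replicate 2 and 0 in the other libraries. Neither was tested.

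Ligands made by activated leukocytes were lower in GFP-HI. CCL5, which attracts T cells, was at 5.12 and 5.16 CPM in GFP-HI and 66.5 and 130 CPM in GFP-NEG (log2 fold change -4.26 ± 0.59 SE, adjusted p of 1.7e-10, edgeR). XCL1, the single-cysteine chemokine of T and NK cells, was at 2.45 and 10.2 CPM against 67.7 and 107 CPM, and fell by 3.79 (adjusted p of 5.8e-09). Neither pair of groups overlapped.

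CCL4 and CCL3L1, close paralogues that attract macrophages and T cells, were at 71.6 and 116 CPM and at 3.76 and 7.58 CPM in GFP-HI. In GFP-NEG they reached 574 and 486 CPM and 42.4 and 47.1 CPM. CCL4 fell by 2.50 (adjusted p of 0.0019) and CCL3L1 by 2.98 (adjusted p of 8.0e-06, edgeR). The CCL4 call was lost without GFP-HI replicate 1 (-2.05, adjusted p of 0.080) and without GFP-HI replicate 2 (-2.80, adjusted p of 0.051). Reads shared by such copies could have been assigned to either.

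CCL17 and CCL22, ligands of CCR4 made by dendritic cells and macrophages, were low throughout. CCL17 was at 0.272 and 0.149 CPM in GFP-HI and 5.28 and 6.80 CPM in GFP-NEG (-4.78, adjusted p of 8.3e-04), and CCL22 at 0.951 and 0.446 CPM against 5.90 and 4.17 CPM (-2.83, adjusted p of 0.043, edgeR). Without any 1 of the 4 libraries, CCL22 missed the threshold, with values from -3.33 to -2.31, and with all libraries it also missed under upper quartile scaling, library size alone and DESeq2 with the block. As a gauge of background level, 41 genes of the other-tissue control list were found in the tables. Their 95th percentile was 10.6 and 7.13 CPM in the GFP-NEG libraries and 6.80 and 4.91 CPM in the GFP-HI libraries. Their median was 0.621 and 1.53 CPM in GFP-NEG and 0 in both GFP-HI libraries. The gauge is rough, as 1 gene of that list was itself called higher in GFP-HI. Of the 43 members, 14 and 21 lay above the 95th percentile in the GFP-HI libraries and 29 in each GFP-NEG library. CCL17, CCL22, CCL28 and CXCL11 were the members called lower whose GFP-NEG levels did not exceed that percentile in either library.

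CCL8, a monocyte attractant encoded close to CCL2, was lower in GFP-HI where CCL2 was higher. It stood at 7.43 and 17.4 CPM in GFP-HI and 43.9 and 24.8 CPM in GFP-NEG, a difference of -1.46 on the log2 scale (SE 0.55, adjusted p of 0.025, edgeR). The groups were apart, but the difference was -2.49 within replicate 1 and -0.49 within replicate 2. It lost its call without GFP-NEG replicate 1 (-0.94), GFP-NEG replicate 2 (-1.86) or GFP-HI replicate 1 (-0.85), and under DESeq2 (adjusted p of 0.069). CCL11, an eosinophil attractant, is named after its values were seen. It was at 2.85 and 3.87 CPM in GFP-HI and 0.466 and 1.32 CPM in GFP-NEG, apart but not past the threshold (1.88, adjusted p of 0.23).

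Among the CXC ligands, the neutrophil attractants CXCL2 and CXCL8 were lower in GFP-HI. CXCL2 was at 16.4 and 9.22 CPM in GFP-HI and 407 and 189 CPM in GFP-NEG, 12.8 ± 5.05 against 298 ± 154 CPM (SD, n = 2). CXCL8 was at 15.3 and 24.6 CPM against 339 and 175 CPM. Their log2 fold changes were -4.54 and -3.69 (adjusted p of 5.2e-09 and 5.9e-07, edgeR), and each held in all 4 fits without a library. Genes induced by tissue dissociation moved with them: 7 of 10 tested genes of that list were lower in GFP-HI, with summed levels of 2688 and 1677 CPM against 10394 and 8376 CPM. That number was 1 to 7 without 1 library, the lowest without GFP-HI replicate 2. Of 6 tested neutrophil markers, 5 were lower too, summed at 229 and 217 CPM against 3005 and 1503 CPM, and 3 without GFP-NEG replicate 1. The part of either in the ligands' values was not tested.

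The interferon-induced ligands of CXCR3 showed another pattern. CXCL10 was at 249 and 84.3 CPM in GFP-HI and at 188 and 31.8 CPM in GFP-NEG. Replicate 1 was the higher library in both fractions, the groups overlapped, and the log2 fold change of 0.61 did not pass (adjusted p of 0.45, edgeR). It ranged from -0.29 without GFP-HI replicate 1 to 2.44 without GFP-NEG replicate 1, the latter past the threshold (adjusted p of 0.021). Without GFP-NEG replicate 2 it was -0.21.

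CXCL9 had 2.68 to 5.35 CPM in GFP-HI and 2.95 to 5.70 CPM in GFP-NEG. CXCL11 had 4 and 0 counts in GFP-HI against 17 and 5 in GFP-NEG, which gave -3.96 (adjusted p of 0.012, edgeR). It missed the threshold with the replicate block (-4.30, adjusted p of 0.10), under DESeq2 (adjusted p of 0.10), and in the 3 fits without a library in which it was tested, where the adjusted p ranged from 0.090 to 0.33 and the value without GFP-HI replicate 1 was -7.21. Against the 3 CXCR3 ligands, the receptor CXCR3 itself, carried by activated T cells, was at 0.589 and 2.43 CPM in GFP-HI and 8.54 and 36.6 CPM in GFP-NEG (-3.91, adjusted p of 1.7e-06). Without GFP-NEG replicate 2 CXCR3 was at -2.54 and missed the threshold (adjusted p of 0.068).

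**Figure D2:**
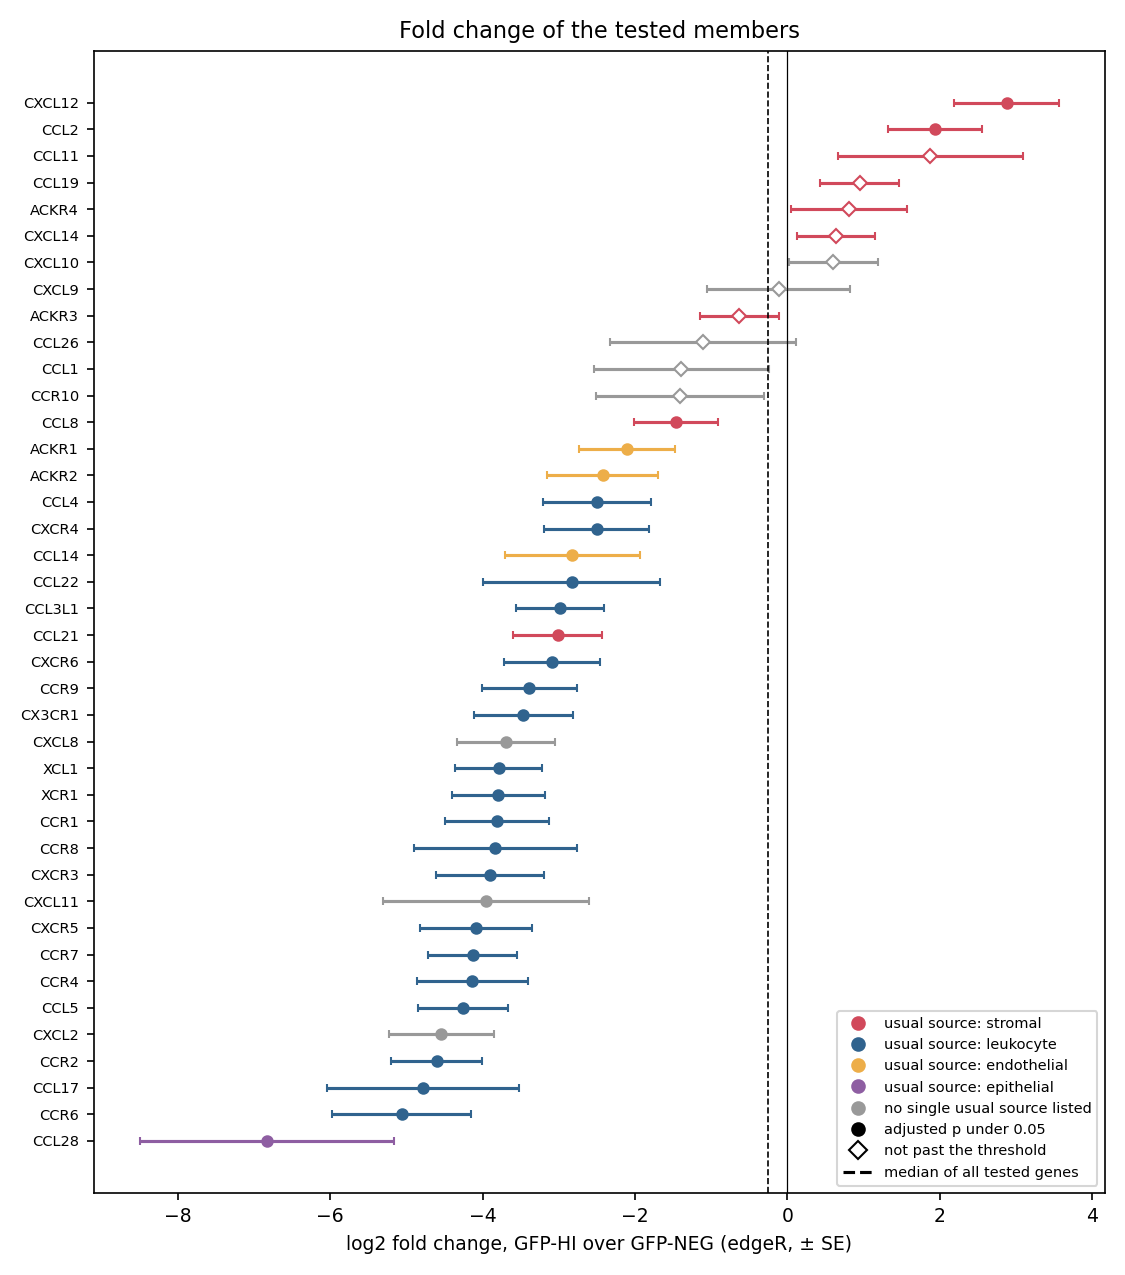
Log2 fold change, GFP-HI over GFP-NEG, with its standard error for 40 of the 41 tested members, coloured by usual source. Filled circles passed an adjusted p of 0.05 in edgeR and open diamonds did not, and the dashed line is the median of all tested genes. The 19 leukocyte members drawn lie between -5.06 and -2.50, and the stromal ones spread from -3.01 to 2.88.

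Signalling receptors moved in 1 direction. Of 15, 14 were lower in GFP-HI past the threshold and 0 higher, against 27.6% and 8.35% of all tested genes. Their median log2 fold change was -3.81. The number called lower was 11 without GFP-HI replicate 1, 12 without GFP-NEG replicate 2 and 14 without either other library. CCR10, a skin and mucosal homing receptor, was the exception, with 2.36 and 0.694 CPM in GFP-HI and an overlapping 2.17 and 5.92 CPM in GFP-NEG (-1.41, adjusted p of 0.34, edgeR).

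Receptors of monocytes, macrophages and dendritic cells were lower in GFP-HI. CCR2, the receptor for CCL2, was at 2.99 and 3.87 CPM in GFP-HI and 71.1 and 95.4 CPM in GFP-NEG, or 3.43 ± 0.620 against 83.2 ± 17.2 CPM (SD, n = 2). Its log2 fold change was -4.60 (SE 0.60, adjusted p of 1.6e-11, edgeR), with -4.36 and -4.46 within the replicates. CCR1, which binds CCL3 and CCL5, was at 27.7 and 24.9 CPM against 575 and 163 CPM and fell by 3.81 (adjusted p of 1.5e-06). The GFP-NEG replicates of CCR1 differed severalfold while those of CCR2 did not.

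CX3CR1, the fractalkine receptor of patrolling monocytes, was at 2.22 and 2.92 CPM in GFP-HI against 32.1 and 24.9 CPM in GFP-NEG (-3.47, adjusted p of 3.5e-06, edgeR). XCR1, the XCL1 receptor of cross-presenting dendritic cells, was at 4.26 and 1.83 CPM against 37.3 and 47.7 CPM (-3.80, adjusted p of 4.6e-08).

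Lymphocyte receptors were lower to a similar degree. CCR7, which guides naive T cells and dendritic cells to lymph nodes, was at 1.68 and 6.54 CPM in GFP-HI and 40.4 and 103 CPM in GFP-NEG (-4.13, adjusted p of 4.7e-10, edgeR). CXCR5, the follicle-homing receptor of B cells, was at 0.725 and 1.78 CPM against 12.1 and 30.5 CPM (-4.08, adjusted p of 1.4e-06). CCR6, which marks B cells and T helper subsets, was at 0.725 and 0.0991 CPM against 11.3 and 17.0 CPM (-5.06, adjusted p of 1.5e-06). None of these 3 receptors had overlapping groups, and each kept its call in all 4 fits without a library.

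CCR4 and CCR8, carried by regulatory and type 2 helper T cells, were at 0.136 and 2.43 CPM and at 0.0453 and 1.04 CPM in GFP-HI. In GFP-NEG they were at 13.7 and 31.2 CPM and at 6.99 and 8.55 CPM. Their log2 fold changes of -4.13 and -3.83 passed the threshold (adjusted p of 6.5e-07 and 0.0017, edgeR). Without GFP-HI replicate 2, which left 3 and 1 counts in GFP-HI, they were -7.15 and -7.05, and without GFP-HI replicate 1 CCR8 was at -2.74 and missed the threshold (adjusted p of 0.074).

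CCR9, a gut-homing receptor, was at 1.86 and 4.26 CPM in GFP-HI and 19.4 and 44.5 CPM in GFP-NEG (-3.39, adjusted p of 2.8e-06, edgeR). CXCR6, a receptor of tissue-resident T cells, was at 0.951 and 5.90 CPM against 16.1 and 42.2 CPM (-3.09, adjusted p of 2.3e-05). CXCR6 was at -4.80 without GFP-HI replicate 2 and at -2.13, past the threshold no longer, without GFP-HI replicate 1 (adjusted p of 0.053). In all of CCR4, CCR7, CCR8, CCR9, CXCR3, CXCR4, CXCR5 and CXCR6, replicate 2 was the higher library in each fraction. For CCR6 this held in GFP-NEG only, with 0.725 and 0.0991 CPM in GFP-HI. T and NK cell markers, summed, were also higher in replicate 2, at 126 and 236 CPM in GFP-HI against 917 and 1795 CPM, and their part in these values was not tested.

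CXCR4, the signalling receptor for CXCL12 on most leukocytes, had the smallest fall of the 14. It was at 35.1 and 131 CPM in GFP-HI and 270 and 666 CPM in GFP-NEG, or 82.9 ± 67.6 against 468 ± 279 CPM (SD, n = 2). The log2 fold change was -2.50 (SE 0.69, adjusted p of 0.0014, edgeR). It was -1.67 without GFP-HI replicate 1 and -1.74 without GFP-NEG replicate 2, in both cases with an adjusted p of 0.14. CXCL12 and CXCR4 thus differed in opposite directions, with 9.52 and 4.03 counts of CXCL12 per count of CXCR4 in GFP-HI against 0.318 and 0.0468 in GFP-NEG.

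ACKR3, the atypical receptor that takes up CXCL12, overlapped between the groups. It was at 46.4 and 16.6 CPM in GFP-HI and 72.5 and 25.2 CPM in GFP-NEG (-0.63, adjusted p of 0.36, edgeR), and turned to 0.37 without GFP-NEG replicate 1. In both fractions replicate 1 was the higher library, and the differences within the replicates, -0.64 and -0.59, were close. There were 7.19 and 31.7 counts of CXCL12 per count of ACKR3 in GFP-HI against 1.19 and 1.23 in GFP-NEG. CCL2 and its receptor CCR2 stood apart in the same way as CXCL12 and CXCR4, with 79.8 and 69.3 counts of CCL2 per CCR2 count in GFP-HI against 1.62 and 0.184 in GFP-NEG.

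The remaining atypical receptors differed among themselves. ACKR1, the chemokine-binding protein of venules and red cells, was at 3.67 and 6.64 CPM in GFP-HI and 36.6 and 7.89 CPM in GFP-NEG (-2.10, adjusted p of 0.0036, edgeR). Its difference was -3.15 in replicate 1 and -0.23 in replicate 2. Without GFP-NEG replicate 1 it was -0.56 (adjusted p of 0.68), and it also missed the threshold without either GFP-HI library (-1.64 and -2.55, adjusted p of 0.15 and 0.0504). ACKR2, which clears inflammatory CC ligands on lymphatic vessels, was at 3.81 and 2.03 CPM against 17.9 and 13.6 CPM (-2.42, adjusted p of 0.0037), and at -1.96 without GFP-HI replicate 2 (adjusted p of 0.085). ACKR4, a scavenger of CCL19 and CCL21, was at 6.80 and 11.4 CPM against 7.61 and 2.85 CPM, which overlapped (0.81, adjusted p of 0.44). Of 10 tested blood endothelial markers, 9 were lower in GFP-HI, with summed levels of 217 and 215 CPM against 1426 and 590 CPM. That number was 3 to 8 without 1 library, and the part of endothelial RNA in these receptors' values was not tested.

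**Figure D3:**
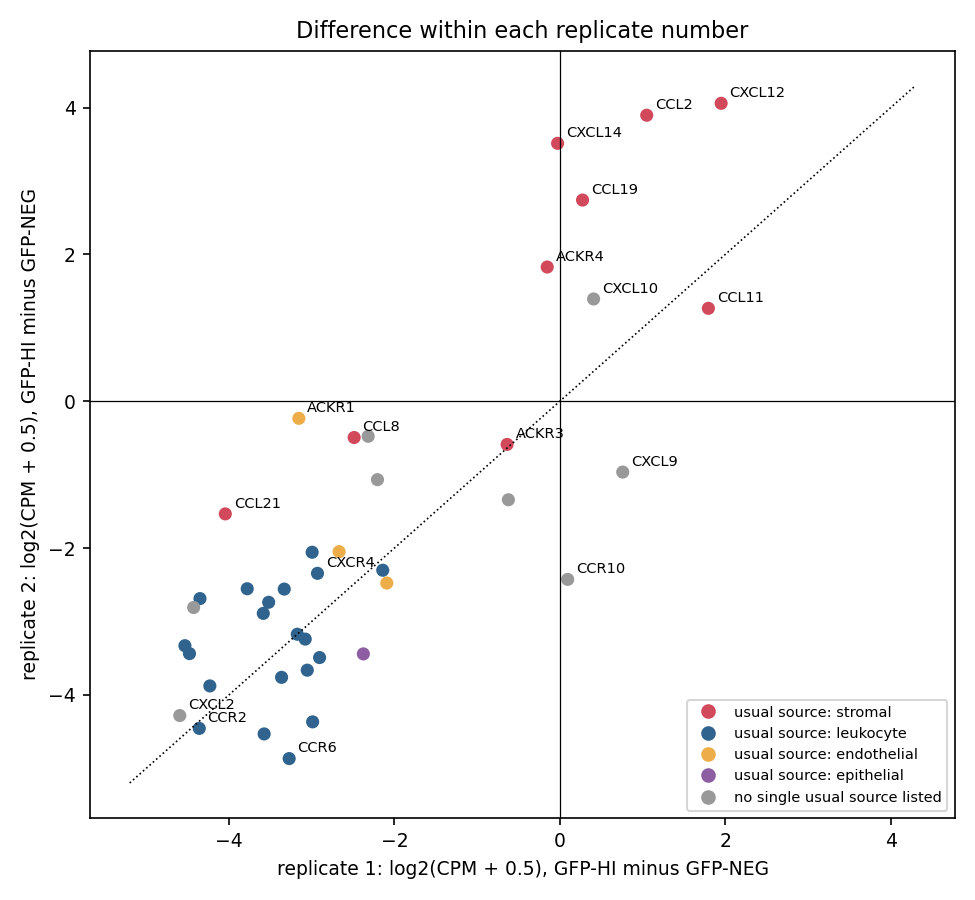
Difference in log2(CPM + 0.5), GFP-HI less GFP-NEG, within replicate 1 (horizontal) and replicate 2 (vertical) for the 41 tested members, coloured by usual source, with the dotted line marking equal differences. Of these, 37 have the same sign in both replicates, and CXCL14, ACKR1, CCL2, CCL21, CCL19 and CXCL12 lie furthest above the line.

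Members were also compared by usual source, from lists drawn up with earlier results of these data known. All 20 members listed as leukocyte-made or leukocyte-borne were called lower, against 27.6% of all tested genes, with a median log2 fold change of -3.80. That list leaves out 8 tested members given no single source, among them CCL1 and CCR10, which lymphocytes also make or carry and which were not called. The number called was 15 to 19 in the 4 fits without a library, and 14 kept their call in every one. The 7 tested pan-leukocyte markers had a median of -3.37, 16 T and NK cell markers -3.54, 9 B and plasma cell markers -3.95, 6 neutrophil markers -4.30, and 12 macrophage and monocyte markers -1.01. The last of these turned to 0.09 without GFP-NEG replicate 1. Of the 9 stromal members, 2 were called higher (CXCL12 and CCL2) and 2 lower (CCL21 and CCL8). The shares over all tested genes were 8.35% and 27.6%. The stromal median was 0.81, against 3.41 for the 14 fibroblast markers. CCL21 stands both in this list and among the lymphatic endothelial markers. That stromal median was 1.72 without GFP-NEG replicate 1, 0.10 without GFP-NEG replicate 2 and 0.43 with library size alone.

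**Figure D4:**
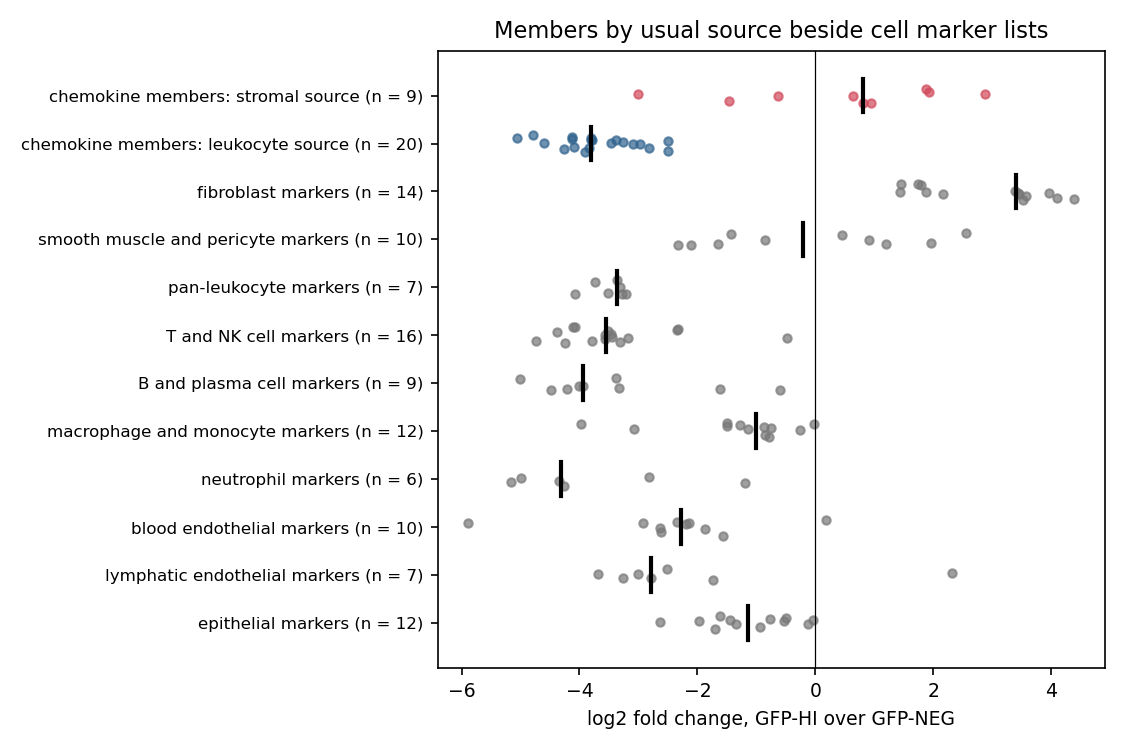
Log2 fold change of tested members of stromal and leukocyte source beside the marker lists, 1 point per gene, with a bar at each median. The leukocyte members (median -3.80) lie over the range of the pan-leukocyte, T cell and B cell markers, and the stromal members have a lower median (0.81) than the fibroblast markers (3.41), with CXCL12, CCL2 and CCL11 inside the fibroblast range.

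Counts of a member per 100 counts of PTPRC, which encodes the leukocyte protein CD45, set it against the leukocyte RNA of the same library. PTPRC was at 83.5 ± 53.1 CPM in GFP-HI against 950 ± 373 CPM in GFP-NEG (SD, n = 2; log2 fold change -3.51, adjusted p of 1.6e-04, edgeR). On this scale 13 of the 20 leukocyte members overlapped between the groups. Of the others, 4 were lower (CCR2, CCR7, CXCR5 and XCL1) and 3 higher in GFP-HI. With 2 libraries in each fraction, groups may lie apart without any difference. No share over all genes was computed on this scale, so these numbers have no background to be read against. With the summed pan-leukocyte list in place of PTPRC the 3 higher genes were the same, but of the 4 lower genes only CCR2 and CXCR5 were shared, CCL17 and CCR6 taking the place of CCR7 and XCL1. CCR2 had 6.51 and 3.19 counts per 100 in GFP-HI against 10.4 and 7.86 in GFP-NEG.

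CXCR4, CCL4 and CCL3L1 were the 3 that were higher per PTPRC count. CXCR4 had 76.3 and 108 counts per 100 in GFP-HI against 39.4 and 54.8 in GFP-NEG. CCL4 had 156 and 96.1 against 83.5 and 40.0, and CCL3L1 had 8.19 and 6.27 against 6.17 and 3.88. The comparison was chosen after the values were seen and carries no test.

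**Figure D5:**
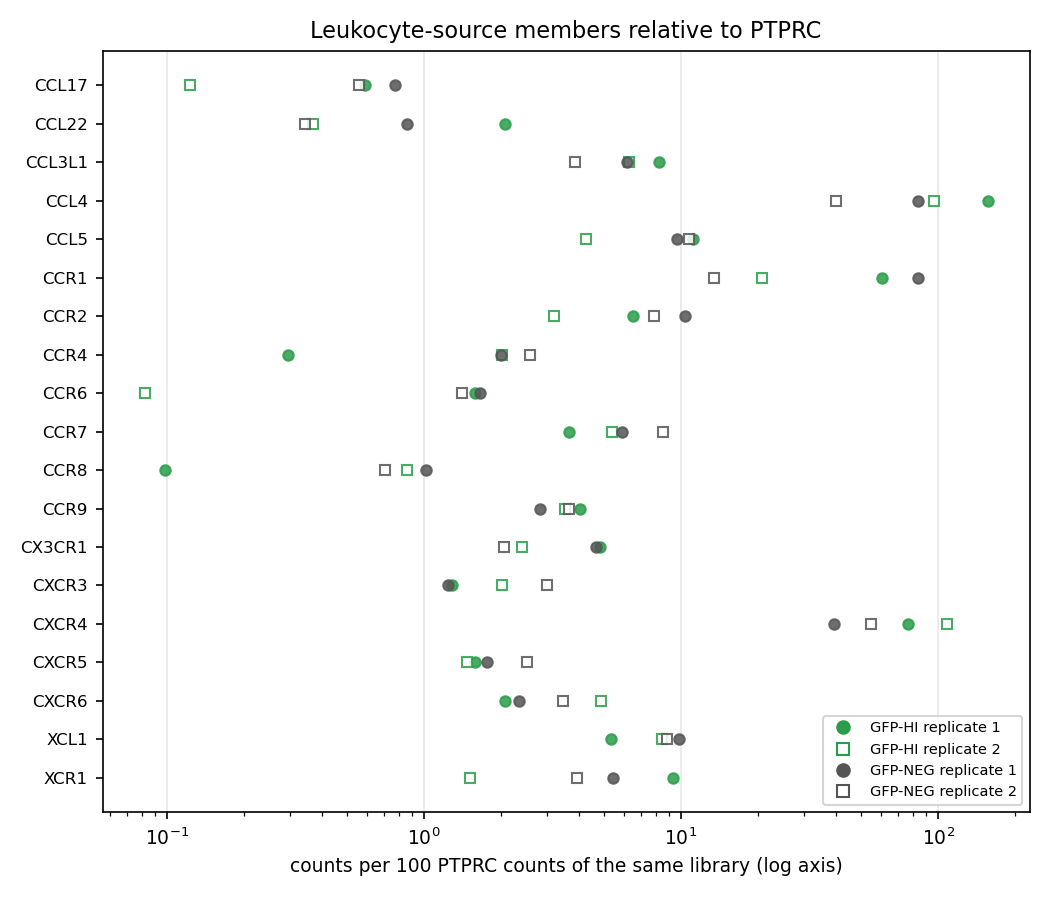
Counts per 100 PTPRC counts of the same library for 19 of the 20 leukocyte members, on a log axis, with 1 symbol per library. The fractions overlap for 12 of these genes, and both GFP-HI values lie above both GFP-NEG values for CXCR4, CCL4 and CCL3L1.

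Set against PDGFRA, the fibroblast receptor gene, no stromal member was higher in GFP-HI. PDGFRA itself was at 692 ± 183 CPM in GFP-HI against 59.9 ± 52.7 CPM in GFP-NEG (SD, n = 2; log2 fold change 3.53, adjusted p of 6.8e-05, edgeR). Leaving out GFP-NEG replicate 2 gave 2.79, short of the threshold (adjusted p of 0.066). Per 100 PDGFRA counts, CXCL12 had 40.6 and 93.6 in GFP-HI against 88.5 and 137 in GFP-NEG, which overlapped. CCL2 had 29.0 and 47.7 against 118 and 77.3, and CXCL14 had 7.23 and 6.94 against 62.3 and 13.0. Of the 9 stromal members, 7 were lower in GFP-HI on this scale and 2 overlapped. The 20 leukocyte, 3 endothelial and 1 epithelial members, and 8 of no single source, were all lower as well. PDGFRA is itself higher in GFP-HI, so division by it favours lower values. The count is therefore not particular to stromal members.

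The choice of fibroblast gene mattered: on the summed fibroblast list 5 of the 9 stromal members were lower, 1 higher and 3 overlapping. The 20 leukocyte, 3 endothelial and 1 epithelial members, and 8 of no single source, were all lower on that list too. Per 100 counts of the summed fibroblast list, which is dominated by collagens, CXCL12 had 0.339 and 0.583 in GFP-HI against 0.275 and 0.302 in GFP-NEG, with the groups apart and GFP-HI higher. CCL2 overlapped, at 0.242 and 0.297 against 0.367 and 0.170, and so did CXCL14, at 0.0603 and 0.0432 against 0.193 and 0.0287. Those ratios too were chosen after the values were seen.

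Other genes of the pathway, outside the naming rule, were described from lists. Of 22 tested genes of receptor signalling and leukocyte motility, 14 were lower and 0 higher, against 27.6% and 8.35% of all tested genes. Their median log2 fold change was -1.91. The number lower was 9 to 11 in the fits without a library. CORO1A and RAC2, cytoskeletal regulators of blood cells, had log2 fold changes of -3.73 and -3.58, and PIK3CG, the phosphoinositide kinase activated by chemokine receptors, had -4.01, all past the threshold (the highest adjusted p was 1.4e-04, edgeR). RGS13 had 0 counts in both GFP-HI libraries and 9 and 8 in GFP-NEG.

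Chemokine-like genes outside the rule moved in both directions, with 1 of 6 tested genes higher and 2 lower. The shares over all tested genes were 8.35% and 27.6%. RARRES2, which encodes the attractant chemerin, was at 1195 ± 704 CPM in GFP-HI against 199 ± 187 CPM in GFP-NEG (SD, n = 2; 2.58, adjusted p of 0.0072, edgeR). Without GFP-NEG replicate 2 it was at 1.81 and without GFP-HI replicate 2 at 1.85, both short of the threshold, and without GFP-NEG replicate 1 at 4.21. CCRL2, an atypical receptor that binds chemerin, was at 8.03 ± 0.142 CPM against 81.2 ± 51.1 CPM (-3.34, adjusted p of 1.9e-07).

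Among genes that cut or present chemokines, 4 of 12 tested were higher and 3 lower, against 8.35% and 27.6% of all tested genes. Their median log2 fold change was 0.33, and -0.04 to 0.77 without 1 library. MMP2, a protease that cleaves CXCL12, was at 781 ± 69.9 CPM in GFP-HI against 119 ± 107 CPM in GFP-NEG (SD, n = 2; 2.72, adjusted p of 0.0018, edgeR). That call was lost without GFP-NEG replicate 2 (1.97, adjusted p of 0.27), and the value was 4.22 without GFP-NEG replicate 1. The neutrophil proteases MMP9 and MMP8 were lower (-4.99 and -5.16), MMP8 only with GFP-NEG replicate 1 present (-1.88 without it, adjusted p of 0.37) and at -8.18 without GFP-HI replicate 1. DPP4, the surface peptidase that inactivates CXCL12, is named after its values were seen. It was at 6.11 ± 0.757 CPM in GFP-HI against 51.4 ± 6.08 CPM in GFP-NEG (-3.07, adjusted p of 2.8e-06).

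Cytokines and transcription factors that induce chemokines were lower in 7 of 14 tested cases and higher in 0. Over all tested genes the shares were 27.6% and 8.35%. The median log2 fold change of the 14 was -1.87. In the fits without a library 2 to 4 were lower. NFKBIA, the NF-kappa-B inhibitor that NF-kappa-B itself induces, was at -3.25 (adjusted p of 0.015, edgeR), and at -2.78 without GFP-HI replicate 2, where it missed the threshold (adjusted p of 0.16).

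The authors' deposited table, which lists 16250 genes, holds 38 of the members. It calls 2 of them higher and 25 lower at an adjusted p under 0.05, against 8.2% and 11.2% of all its genes. For 37 of the 38 the call in that table was the one made here. The exception was CCL8, at -1.47 on the log2 scale in the authors' deposited table, where its adjusted p was 0.069.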

How the data were processed

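RNA sequencing was done on sorted pig lung cells, 2 GFP-HI and 2 GFP-NEG libraries. The deposited values are raw counts per gene, 1 table per library. The submitters' processing notes name featureCounts, Subread 1.5.2 and DESeq2 1.37.6 without stating their roles. The aligner and strand setting are not given in the sources used here, and no build is named beyond an annotation number in the name of the authors' table, so overlapping and near-identical genes are uncertain. A further table holds the authors' own comparison of the fractions, with log2 fold changes and p-values, raw and adjusted, per the file headers. Its counts were the same as those of the single tables, and its 4 columns of normalized values per library were not used.

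Counts were tested here with edgeR 4.0.16 (quasi-likelihood, TMM, filterByExpr, group as the only term, R 4.3.3), over 19682 genes that held 99.8% of counts. P-values were Benjamini-Hochberg adjusted, with a threshold of 0.05. The common dispersion was 0.239, and with infinite prior degrees of freedom a gene's own replicate scatter had little weight. A standard error is the size of a log2 fold change divided by the square root of F. Alternatives were other scalings and filters, DESeq2 1.42.0, a replicate block and the removal of each library. The procedure was also run on simulated data with less scatter and fewer changed genes than here. That run does not measure its error on these libraries.

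Headings of the authors' table name pig 1 and pig 2 in both fractions, but 2 of its 4 headings for normalized values stand over values proportional to another library's counts. The labels give both fractions the same replicate numbers without saying that a number stands for 1 pig, and these headings do not settle it. The pairing of replicate numbers is thus not established, and blocked values are given beside the results they change. Across genes, the replicate deviations of the fractions correlated with r = 0.160. No label says how the biological replicates were separated beyond their number. The members and lists were chosen with earlier results of these data known. Members are named if called, if at a mean of at least 5 CPM in either group, or if partners of such a gene. From other lists, the most abundant and the most changed genes are named. Counts per PTPRC, PDGFRA or list were chosen after values were seen. CCL25 appears in the tables only by identifier and was added as an alternative. One member and 1 gene of another list stay in the counts and medians but are not reported here by name.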

Additional observations from a re-analysis of the deposited data

How the results depend on the processing

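Members called lower in GFP-HI numbered 24 to 29 under every scaling, filter, tool and block tried, against 29 with all libraries, and 21 to 24 without 1 library. Members called higher numbered 2, with 1 under a filter of at least 10 counts in 2 libraries, 4 with the replicate block and 0 to 5 without 1 library. The block in edgeR, which pairs libraries of the same number, made CCL19 and CXCL14 pass and CXCL11 miss the threshold and changed no other call of a named member. Under DESeq2, the block also cost ACKR1, CCL14 and CCL22 their calls (adjusted p of 0.14, 0.054 and 0.14). The members' median log2 fold change was -3.45 with library size alone, against -3.01, and -3.35 to -2.77 without 1 library. Members with groups apart numbered 3 to 7 higher and 30 to 34 lower without 1 library. Over all genes, 1643 were called higher and 5433 lower. These became 1083 higher under upper quartile scaling, 888 higher with library size alone, 951 higher and 3182 lower with at least 10 counts in 2 libraries, and 3263 lower under DESeq2 with the block. Without 1 library they ranged from 216 to 1635 higher and from 1575 to 4999 lower. Higher genes were 23.2% of calls, and 13.4% with library size alone. Scaling moved the median of all tested genes from -0.25 to -0.68 with library size alone and -0.58 under upper quartile scaling. Over the larger sets of genes tested with no filter and under DESeq2, it was -1.21 and -1.30, and -1.31 under DESeq2 with the block. Without 1 library it ranged from -0.587 to 0.0324, the last without GFP-NEG replicate 2. Without 1 library ACKR3 ranged from -1.45 to 0.37, CXCL10 from -0.29 to 2.44 and CXCL14 from -0.34 to 4.10. Signs turned for ACKR3 (0.37 without GFP-NEG replicate 1), CXCL10 (-0.29 without GFP-HI replicate 1, -0.21 without GFP-NEG replicate 2) and CXCL14 (-0.34 without GFP-NEG replicate 2). The cause of these changes was not tested. Adding CCL25 (log2 fold change 0.33, adjusted p of 0.82, edgeR) changed no count of calls. One count was worth 0.0453 to 0.0496 CPM in GFP-HI and 0.110 to 0.155 CPM in GFP-NEG, so members near 1 CPM rest on few GFP-NEG counts.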
